A study of Mus musculus with 48 samples.

Results

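The retinoblastoma (Rb) and E2F gene families were followed through 48 RNA libraries of mouse embryonic stem cells, in which the mRNAs bound to the silencing protein Tnrc6a were pulled down and sequenced. The genes were taken by symbol from the deposited count table and make up 10 of its 20171 genes: the pocket protein genes Rb1, Rbl1 and Rbl2, and the transcription factor genes E2f1, E2f2, E2f3, E2f4, E2f5, E2f7 and E2f8. Each symbol matched 1 row. All 10 genes passed the filter on low counts in each of the 9 comparisons.

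Pocket proteins bind E2F transcription factors and hold back the genes that start DNA replication, and cyclin-dependent kinases release this hold by phosphorylating them. E2f1, E2f2 and E2f3 are classed as activators, E2f4 and E2f5 as repressors that work together with pocket proteins, and E2f7 and E2f8 as atypical repressors that bind DNA without a dimerization partner. Tnrc6a, a GW182 protein, binds microRNA-loaded Argonaute proteins such as Ago2 and brings deadenylases to the mRNA. Embryonic stem cells are known for a short G1 phase and for microRNAs that target inhibitors of the cell cycle, among them Rbl2.

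All cells carried the yGlob GFP_5xT71BS reporter in a 129S6/SvEvTac background with a stably transfected FLAG-Cas9::T2A::Blasticidin construct. The 4 genotypes were this line itself, which has no HA tag (the untagged control), the same with HA-AVI-Tnrc6a (called HA-Tnrc6a), HA-AVI-Tnrc6a with Ago2-/- and HA-AVI-Tnrc6a with Upf1-/-. From each genotype, lysate RNA (input) and RNA recovered on HA beads (immunoprecipitate, IP) gave 6 libraries apiece. Cells were grown in triplicate dishes, how many clones stand for a genotype is not given in the sources used here, and the p-values measure the spread between these libraries only.

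The columns of the table are numbered 1 to 6 in each of the 8 groups, and libraries 1 to 3 and 4 to 6 were treated as 2 batches, called sets here. The labels name experiments 3 and 4, but which numbers belong to which experiment is not stated. Input libraries held 15383953 to 19595405 counts in set 1 to 3 and 26458831 to 37179105 in set 4 to 6, and IPs 11471544 to 18344233 and 25724085 to 73845953. Tnrc6a itself stood at a mean of 26550 and 10680 CPM (counts per 1000000, after TMM scaling) in the HA-Tnrc6a IPs of the 2 sets and at 71.2 and 99.8 CPM in the untagged IPs. Ago2 mRNA was lower in Ago2-/- than in HA-Tnrc6a inputs, with a log2 difference of -1.21 ± 0.03 (SE, n = 6). Upf1 mRNA was not lower in the inputs labelled Upf1-/-: its mean was 123 and 139 CPM there against 77.6 and 98.5 CPM in HA-Tnrc6a, so these cells are called by their label throughout. HA-Tnrc6a input 3 stood apart from inputs 1 and 2 of its set, with a chi-square per degree of freedom of 34.3 and 28.9 against 2.66 between those 2, and it enters the enrichment, recovery and input comparisons. Without it all 10 members were still called in the enrichment, while the Rb1 recovery call (adjusted p = 0.0617) and the Rbl2 input call with Ago2-/- (adjusted p = 0.0672) were lost by edgeR's test, as was the set difference of E2f3 in those inputs, and the genes called in recovery with the Upf1-/- label fell from 896 to 594. IP 4 labelled Upf1-/- differed from IPs 5 and 6 by 26.3 and 36.2 against 4.69, and without it 10 members were called in the enrichment and 0 in recovery, as with it. Untagged input 1 differed from inputs 2 and 3 by 10.7 and 9.48 against 1.96, and without it 10 members were called in each enrichment and 4 in place of 3 for the beads alone. The summed level of 8 stem cell markers was 6400 to 8089 CPM over all inputs.

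MicroRNAs were not measured here. The mature sequences below (RefSeq, GRCm38.p6) show the seeds of the miR-290 and miR-302 clusters and of the miR-17 family, because Rbl2 is a known target of these families and E2f1 of miR-17 and miR-20a. Capitals mark the seed, bases 2 to 8 from the 5′ end.
miR-291a-3p: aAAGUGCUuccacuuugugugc
miR-294-3p: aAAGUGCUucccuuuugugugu
miR-295-3p: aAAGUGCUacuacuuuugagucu
miR-302b-3p: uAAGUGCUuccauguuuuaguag
miR-302d-3p: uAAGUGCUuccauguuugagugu
miR-17-5p: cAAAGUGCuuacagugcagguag
miR-20a-5p: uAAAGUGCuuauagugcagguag
miR-106b-5p: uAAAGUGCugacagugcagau

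The first 5 sequences share the seed AAGUGCU, which no other entry among 1679 mature mouse microRNAs in the RefSeq table has. The last 3 are among 7 entries with the seed AAAGUGC, which overlaps the first seed at an offset of 1 base without being the same. miR-294-3p lies at chr7:3220691-3220712 on the plus strand and miR-17-5p at chr14:115043684-115043706 on the plus strand. No search for target sites in the mRNAs was made.

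The 10 genes lie on different chromosomes or far apart (GRCm38.p6): Rb1 at chr14:73192858-73325951, Rbl1 at chr2:157145893-157204534 and Rbl2 at chr8:91070057-91123844. The activator genes lie at chr2:154559400-154569892 (E2f1), chr4:136172274-136196057 (E2f2) and chr13:29906575-29986064 (E2f3). E2f4 and E2f5 lie at chr8:105297663-105305370 and chr3:14578602-14606309, and E2f7 and E2f8 at chr10:110745439-110787384 and chr7:48866429-48882073. Counts were made per gene, and the library kit keeps strand, but whether the counting used strand is not given in the sources used here. Reads of overlapping genes may therefore be shared. Overlaps were taken between whole gene spans, with introns and both strands, so they do not measure the counted bases that are shared. Rbl2 had the largest: 12064 bases of its span of 53788 are also annotated as Aktip. The length given for Rbl2 in the count table was 7558 bases. Aktip stood at 32.7 to 45.3 CPM in HA-Tnrc6a inputs and 91.7 to 181 CPM in the IPs. Rb1 shares 2468 bases with Lpar6, at 2.15 to 4.32 CPM in those inputs, and the overlaps of E2f1 with Necab3 and of E2f5 with Rbis cover 7 and 21 bases. Annotated noncoding genes or pseudogenes share 2630 bases with E2f7 (Gm51780), 2584 and 774 with E2f8 (LOC115486422 and Gm2788), 506 with Rbl1 (Gm14277) and 89 with Rb1 (Mir687).

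In the inputs of HA-Tnrc6a cells, E2f4 was the most abundant member and Rbl2 among the least abundant when counts were divided by the gene length in the count table (CPM per kb). E2f4 stood at a mean of 68.7 CPM per kb in set 1 to 3 and 71.6 in set 4 to 6. Its partner in the repressor class, E2f5, stood at 17.1 and 16.3, next to E2f1 at 16.9 and 16.7, and the libraries of these neighbours overlapped in both sets. E2f8 followed at 10.9 and 14.2, E2f3 at 8.20 and 11.2, and Rbl1 at 5.48 and 5.12 CPM per kb. The lowest levels were those of E2f7 (3.34 and 3.22), Rb1 (2.94 and 2.62), E2f2 (2.68 and 5.00) and Rbl2 (1.61 and 1.4). E2f2 overlapped with Rb1 in set 1 to 3 and with Rbl1 in set 4 to 6, so its place in the order depended on the set. In the HA-Tnrc6a IPs the order was another: E2f3 had the highest mean with 146 and 157 CPM per kb but overlapped the next member, E2f5 in set 1 to 3 and E2f2 in set 4 to 6. Rbl2 stood at 64.1 and 43.5, and Rb1 was the lowest at 6.54 and 6.92.

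**Figure D1:**
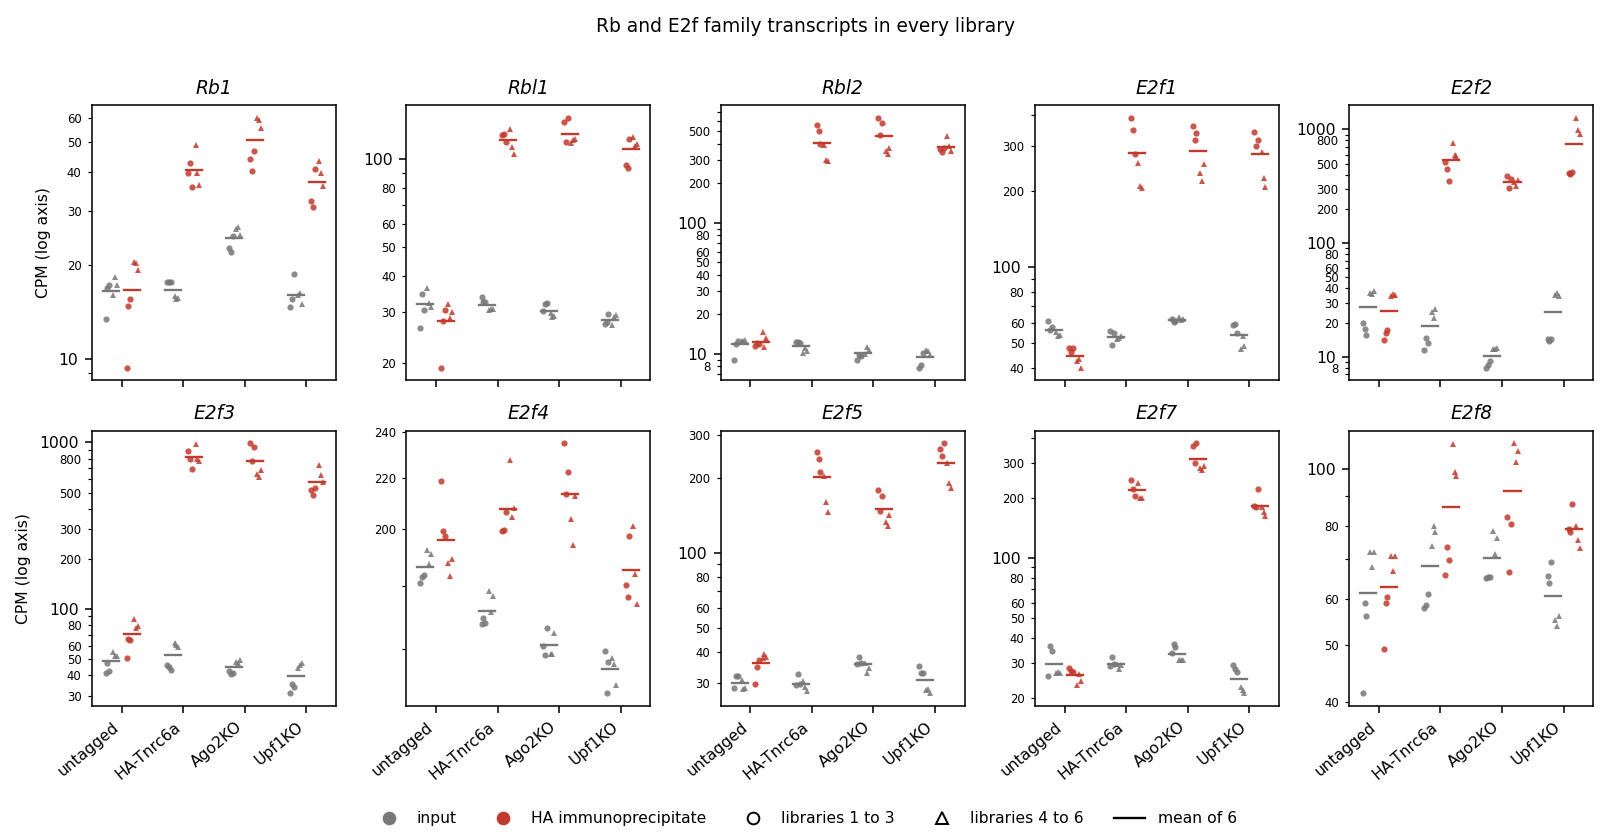
Level of each gene in every library, in CPM on a log axis whose range differs between panels, for inputs (grey) and HA immunoprecipitates (red) of the 4 genotypes. Circles are libraries 1 to 3, triangles libraries 4 to 6 and bars the mean of 6. In the 3 tagged genotypes the Rbl2 immunoprecipitates lie between 294 and 628 CPM, against 7.81 to 12.4 CPM in their inputs.

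The first comparison asked which members were recovered with HA-Tnrc6a, with IP over input in HA-Tnrc6a cells set against IP over input in untagged cells. All 10 members were recovered more with HA-Tnrc6a than from untagged cells, by edgeR's quasi-likelihood test at a Benjamini-Hochberg adjusted p below 0.05, against 29.8% of all genes tested. The gain was at least 2-fold for 8 of them, against 16.5% of all genes. The median log2 enrichment of the members was 2.62, and that of all genes was -0.10. Only relative recovery is measured: fewer cells with a transcript and less transcript per cell cannot be told apart in these bulk samples. With library totals in place of TMM scaling the median of all genes moved to -0.25.

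Among the pocket proteins the order was Rbl2, Rbl1, Rb1. Rbl2 (p130), the pocket protein of quiescent cells, stood at 12.2, 12.4 and 12.0 CPM in HA-Tnrc6a inputs 1 to 3 and at 10.2, 11.1 and 10.5 CPM in inputs 4 to 6. The HA-Tnrc6a IPs held 556, 500.4 and 397 CPM in set 1 to 3 and 392, 302 and 294 CPM in set 4 to 6. In untagged IPs it stood between 11.3 and 14.6 CPM. Every HA-Tnrc6a IP lay far above every untagged IP, and the untagged IPs were close to their inputs (9.01 to 12.6 CPM). The log2 enrichment of Rbl2 was 5.08 ± 0.13 (SE, n = 6 per group), or 33.9-fold, with 5.23 in set 1 to 3 and 4.94 in set 4 to 6 (edgeR adjusted p = 4.89e-24). This value was above 99.84% of the genes tested. Aktip, which overlaps Rbl2, had a log2 enrichment of 1.73 ± 0.09, and the share of its reads in the Rbl2 counts was not tested.

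Rbl1 (p107), the pocket protein of cycling cells, stood at 121, 123 and 115 CPM in HA-Tnrc6a IPs 1 to 3 and 127, 110.2 and 104 CPM in IPs 4 to 6. Its untagged IPs held 19.3 to 31.9 CPM and the HA-Tnrc6a inputs 30.5 to 33.7 CPM. The IPs of the 2 genotypes did not overlap, and the log2 enrichment was 2.08 ± 0.11 (SE, n = 6; edgeR adjusted p = 2.27e-18).

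Rb1, the founding tumour suppressor of the family, was recovered least among the 3. Its HA-Tnrc6a IPs held 39.7, 42.7 and 35.7 CPM in set 1 to 3 and 48.8, 39.7 and 36.4 CPM in set 4 to 6. The untagged IPs held 9.36 to 20.5 CPM and lay below all 6 of these. The log2 enrichment was 1.32 ± 0.12 (SE, n = 6; edgeR adjusted p = 2.62e-11).

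All 3 activator E2F mRNAs were recovered, E2f2 most. E2f2 differed between the sets already in the inputs of HA-Tnrc6a cells, with 11.6, 14.6 and 13.1 CPM in set 1 to 3 and 25.0, 21.7 and 26.5 CPM in set 4 to 6. The IPs followed with 522, 452 and 351 CPM and then 756, 594 and 587 CPM, while untagged IPs held 14.0 to 35.6 CPM. The ratio of IP to input was 33.7 in set 1 to 3 and 26.5 in set 4 to 6, so the sets were close on this scale although their levels were not. The log2 enrichment of E2f2 was 5.03 ± 0.13 (SE, n = 6), or 32.6-fold, above 99.82% of the genes tested (edgeR adjusted p = 2.06e-22).

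E2f3 stood at 697 to 978 CPM in HA-Tnrc6a IPs and 50.6 to 86.8 CPM in untagged IPs, with inputs of 43.2 to 62.1 CPM. The log2 enrichment of this gene, which is transcribed from alternative promoters into an activator and a shorter form, was 3.46 ± 0.10 (SE, n = 6; edgeR adjusted p = 1.99e-25). E2f1, the activator that also takes part in DNA damage responses, stood at 206 to 389 CPM in HA-Tnrc6a IPs and 40.1 to 47.9 CPM in untagged IPs. Its log2 enrichment was 2.73 ± 0.09 (SE, n = 6; edgeR adjusted p = 2.21e-23). Neither gene's IPs overlapped between the 2 genotypes.

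The repressor pair E2f4 and E2f5 parted. E2f5 stood at 256, 239 and 212 CPM in HA-Tnrc6a IPs 1 to 3 and at 205, 161 and 147 CPM in IPs 4 to 6, against 29.6 to 39.2 CPM in untagged IPs. Its log2 enrichment was 2.51 ± 0.10 (SE, n = 6; edgeR adjusted p = 1.34e-21). E2f4, the most abundant member, stood at 199 to 228 CPM in HA-Tnrc6a IPs and at 183 to 219 CPM in untagged IPs, and these ranges overlapped. Its log2 enrichment was 0.21 ± 0.06 (SE, n = 6, edgeR adjusted p = 0.0022), and with library totals it was 0.05 and no longer called. With IPs compared without inputs it was 0.11 and not called (edgeR adjusted p = 0.103). E2f4 was higher in untagged than in HA-Tnrc6a inputs by 0.12 ± 0.03. This input difference is a term of the enrichment as defined here and raises its value.

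The atypical pair parted as well. E2f7 stood at 247, 223 and 206 CPM in HA-Tnrc6a IPs 1 to 3 and at 239, 201 and 201 CPM in IPs 4 to 6, against inputs of 28.0 to 31.9 CPM. Untagged IPs held 23.1 to 28.2 CPM, far below each of these. The log2 enrichment of E2f7 was 3.08 ± 0.10 (SE, n = 6; edgeR adjusted p = 2.28e-24), with 3.12 and 3.04 in the 2 sets. E2f8 stood at 65.8, 73.5 and 69.8 CPM in HA-Tnrc6a IPs 1 to 3 and at 110.2, 98.9 and 97.2 CPM in IPs 4 to 6, and its untagged IPs held 49.2 to 71.0 CPM. The ranges overlapped over the 6 libraries. The log2 enrichment of E2f8 was 0.29 ± 0.09 (SE, n = 6; edgeR adjusted p = 0.0056), and with library totals it was 0.13 and not called. Fitted on set 1 to 3 alone, neither E2f4, at 0.17 (adjusted p = 0.197), nor E2f8, at 0.20 (adjusted p = 0.294), passed edgeR's test.

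**Figure D2:**
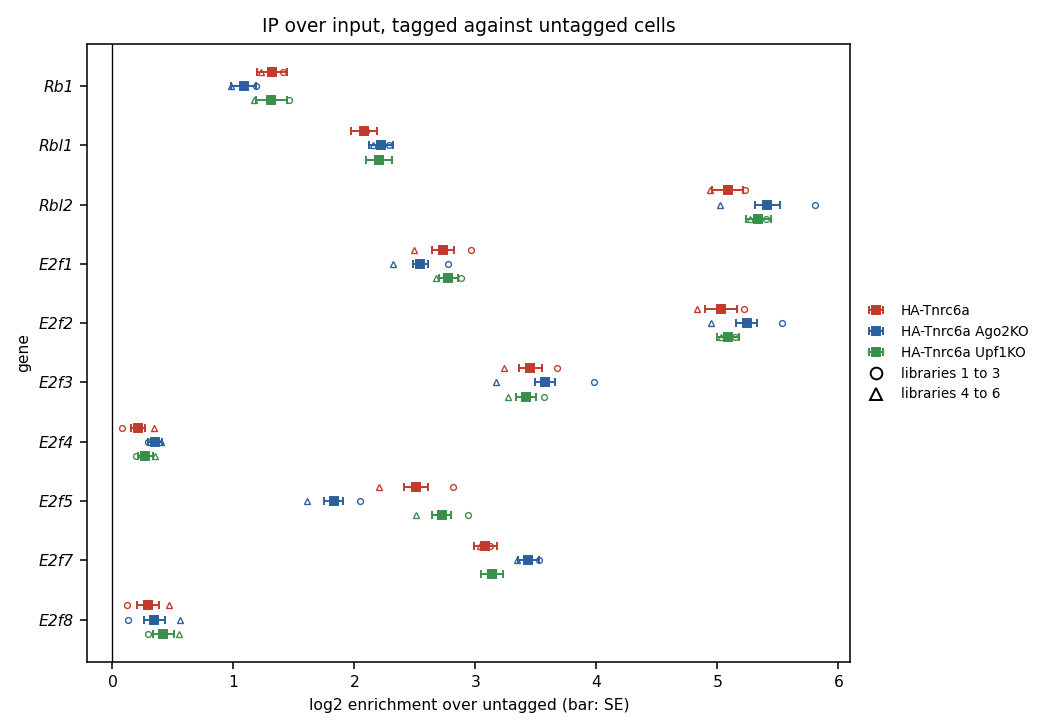
Log2 enrichment of each gene on HA beads, as IP over input in each tagged genotype less IP over input in untagged cells. Squares are the fitted values with SE bars over 6 libraries a group, and open circles and triangles the values within libraries 1 to 3 and 4 to 6. The fitted values of Rbl2 and E2f2 run from 5.03 to 5.41 in the 3 genotypes, and those of E2f4 and E2f8 from 0.21 to 0.42.

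Within each family the enrichment differed between every pair compared. Members were compared as 8 pairs, each by its difference in log2 IP over input, with an exact two-sided permutation test of the genotype labels within sets. Each IP was set against the input of the same number, although the numbers are not taken to pair libraries; with the mean input of the group and set the differences keep their means, and 25 of 32 tests pass either way. The 400 labelings allow no p below 0.005, and p-values were adjusted over the 32 tests of 8 pairs in 4 comparisons. For Rb1 less Rbl2 the difference was -3.85 ± 0.35 in HA-Tnrc6a cells and -0.10 ± 0.40 in untagged cells (mean ± SD, n = 6), which makes a change of -3.75. The change was -2.98 for Rbl1 less Rbl2 and -0.77 for Rb1 less Rbl1. Among activators it was -2.29 for E2f1 less E2f2, -0.73 for E2f1 less E2f3 and 1.56 for E2f2 less E2f3. E2f4 less E2f5 changed by -2.29, from -0.19 ± 0.28 in untagged to -2.47 ± 0.27 in HA-Tnrc6a cells. E2f7 less E2f8 changed by 2.78, from -0.22 ± 0.19 to 2.57 ± 0.18. Each of the 8 had the smallest exact permutation p, 0.005, with an adjusted p of 0.00727. Of all genes 62% were called in this enrichment, in either direction. The share of other gene pairs that would pass was not counted in any of the 4 comparisons. These pairs are therefore not set apart from other genes by the test. With 3 against 3 libraries in a single set no pair could pass, since the smallest p is then 0.1.

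**Figure D3:**
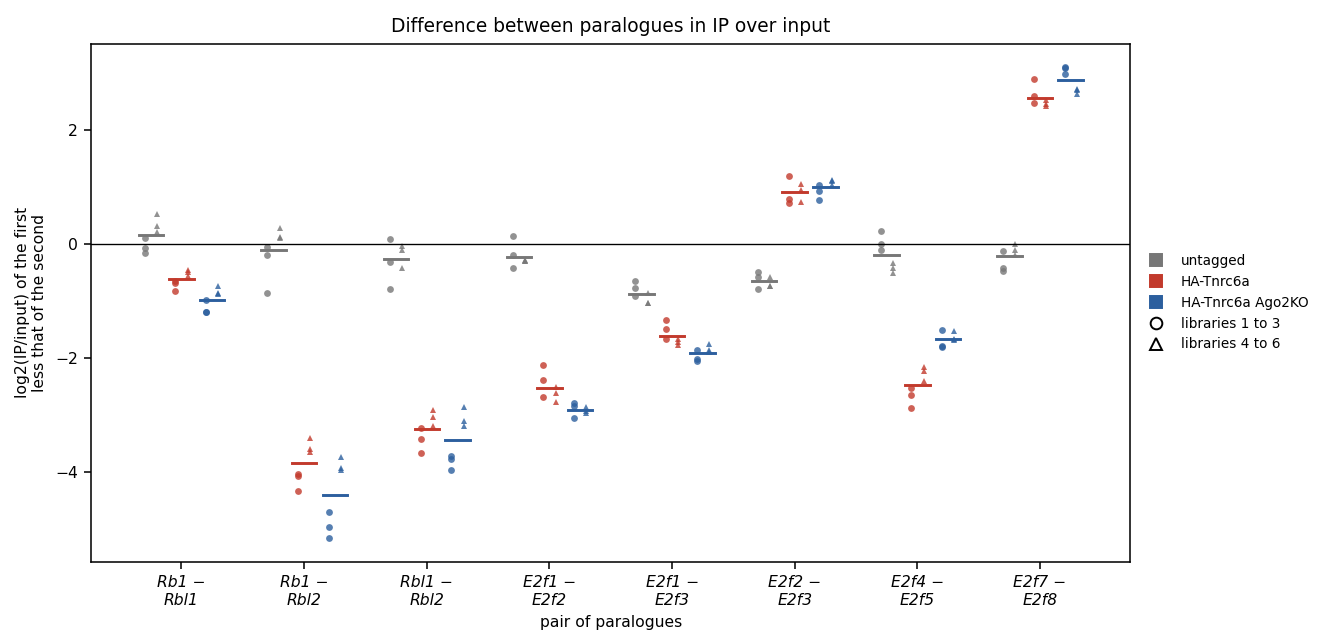
Difference in log2 IP over input between members of the same family, 1 point per library (circles libraries 1 to 3, triangles libraries 4 to 6) and a bar for the mean of 6, in untagged, HA-Tnrc6a and Ago2-/- cells. The differences Rb1 less Rbl2, E2f4 less E2f5 and E2f7 less E2f8 have means of -0.10, -0.19 and -0.22 in untagged cells and of -3.85, -2.47 and 2.57 in HA-Tnrc6a cells.

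All 10 members were also called higher in both knockout genotypes, though some calls on E2f4 and E2f8 depended on the processing. These comparisons use the same untagged libraries as the first, so the values are given side by side and are no independent support. In Ago2-/- cells all 10 members were higher (31.5% of all genes) and 8 at least 2-fold (16.6% of all genes). The log2 enrichments there were 5.41 for Rbl2, 5.24 for E2f2, 3.58 for E2f3, 3.44 for E2f7, 2.55 for E2f1 and 2.22 for Rbl1. E2f5 stood at 1.83, Rb1 at 1.08, E2f4 at 0.35 and E2f8 at 0.34. For 4 members the value was lower in set 4 to 6 than in set 1 to 3 by edgeR's test of the set difference: Rbl2 at 5.81 and 5.02 (adjusted p = 0.0146), E2f3 at 3.98 and 3.17 (0.00149), E2f1 at 2.78 and 2.32 (0.0245) and E2f2 at 5.53 and 4.95 (0.0385). The share of all genes passing this test of the set difference was not counted, so these members are not set apart from other genes by it. In cells labelled Upf1-/- all 10 were again higher (31.8% of all genes) and 8 at least 2-fold (17.7% of all genes). Rbl2 was at 5.34, E2f2 at 5.09, E2f3 at 3.42, E2f7 at 3.14 and E2f1 at 2.78, followed by E2f5 at 2.72 and Rbl1 at 2.2. Rb1 was at 1.31, E2f8 at 0.42 and E2f4 at 0.27, the last of which was -0.07 when IPs were compared without inputs. E2f4 IPs with this label held 174 to 201 CPM, against 183 to 219 CPM in untagged IPs. With library totals E2f8 in both genotypes (0.19 and 0.16) and E2f4 with the Upf1-/- label (0.01) were not called. Fitted on set 1 to 3 alone, E2f8 in Ago2-/- cells was at 0.16 and not called (edgeR adjusted p = 0.422). With the Upf1-/- label E2f4 (0.07, edgeR adjusted p = 0.594) and E2f8 (0.17, adjusted p = 0.383) were not called in that set either.

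Recovery on the beads was then compared between Ago2-/- and HA-Tnrc6a cells directly, as the difference in log2 IP over input. The question was whether the loss of Ago2, 1 of several Argonaute proteins, changed the pull-down of these mRNAs. E2f7 was recovered more, against 9.09% of all genes higher, and E2f5 and Rb1 were recovered less, against 12.3% of all genes lower. None of the 3 changed by 2-fold, and Rbl2 and E2f2 did not pass the test. Tnrc6a mRNA itself differed by 0.11 ± 0.17 on the same scale (edgeR adjusted p = 0.716), with 0.40 in set 1 to 3 and -0.19 in set 4 to 6. In Ago2-/- inputs it was higher by 0.51 ± 0.03 (edgeR adjusted p = 1.65e-17). Its means in Ago2-/- IPs were 50530 and 13250 CPM in the 2 sets, against 26550 and 10680 CPM in HA-Tnrc6a IPs. The part of this in the recovery of the members was not tested.

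E2f5 had the lowest value of the members. Its Ago2-/- IPs held 179, 147 and 169 CPM in set 1 to 3 and 134, 129 and 142 CPM in set 4 to 6, each below the HA-Tnrc6a IPs of the same set, while its inputs were higher (32.9 to 38.2 CPM against 27.8 to 32.4). The log2 difference in recovery was -0.69 ± 0.09 (SE, n = 6; edgeR adjusted p = 4.23e-07), with -0.78 and -0.60 in the 2 sets.

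E2f7 went the other way. Its Ago2-/- IPs held 365, 302 and 376 CPM in set 1 to 3 and 283, 277 and 290 CPM in set 4 to 6, all above the highest HA-Tnrc6a IP. The log2 difference in recovery was 0.35 ± 0.08 (SE, n = 6; edgeR adjusted p = 0.00105), with 0.39 and 0.31 in the sets. In set 1 to 3 alone the adjusted p was 0.0743.

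The call on Rb1 was weak. Ago2-/- IPs held 44.2, 40.5 and 46.7 CPM in set 1 to 3 and 59.8, 58.8 and 55.7 CPM in set 4 to 6, which is more than in HA-Tnrc6a IPs in set 4 to 6, but the inputs were higher by more. The log2 difference in recovery was -0.24 ± 0.09 (SE, n = 6; edgeR adjusted p = 0.0407). It turned to 0.35 when IPs were compared without inputs, and the call was lost in 16 of 24 fits that left out a single library.

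Rbl2 had 628, 469 and 574 CPM in Ago2-/- IPs 1 to 3 and 349, 333 and 374 CPM in IPs 4 to 6, and these overlapped the HA-Tnrc6a IPs in both sets. Its log2 difference in recovery was 0.33 ± 0.12 (SE, n = 6; edgeR adjusted p = 0.0523), with 0.57 in set 1 to 3 and 0.09 in set 4 to 6. It passed under 5 alternatives: library totals (adjusted p = 0.00983), all 48 libraries in 1 fit (0.041), DESeq2 (0.0427), set 1 to 3 alone (0.0452) and a replicate block (0.048). The other 6 members did not pass: E2f2 was at 0.21 ± 0.13, E2f1 at -0.19 ± 0.09, Rbl1 at 0.14 ± 0.07, E2f4 at 0.13 ± 0.06, E2f3 at 0.11 ± 0.09 and E2f8 at 0.05 ± 0.07 (log2, SE, n = 6).

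Several pairs shifted against each other in Ago2-/- cells by the exact permutation test. E2f4 less E2f5 changed by 0.81, Rb1 less Rbl2 by -0.56, E2f1 less E2f2 by -0.39, Rb1 less Rbl1 by -0.37 and E2f7 less E2f8 by 0.30, each with an exact permutation p of 0.005 and an adjusted p of 0.00727. E2f1 less E2f3 changed by -0.30 (exact permutation p = 0.01, adjusted p = 0.0139). Rbl1 less Rbl2, at -0.20, and E2f2 less E2f3, at 0.09, did not pass (exact permutation p = 0.115 and 0.35). How many pairs of other genes would shift in this way was not counted.

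In cells labelled Upf1-/- no member passed the test of recovery against HA-Tnrc6a cells, where 4.49% of all genes were called by edgeR. Without adjustment 2 of 10 had p below 0.05 by edgeR's test, and the share of all genes at that unadjusted level was not counted. DESeq2 also called 0 members after adjustment. The log2 differences ran from -0.05 to 0.24. Rbl2 had the highest, 0.24 ± 0.11 (SE, n = 6; edgeR adjusted p = 0.261), and E2f5 stood at 0.20 ± 0.09 (adjusted p = 0.211). Both recovery comparisons use the same HA-Tnrc6a libraries.

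**Figure D4:**
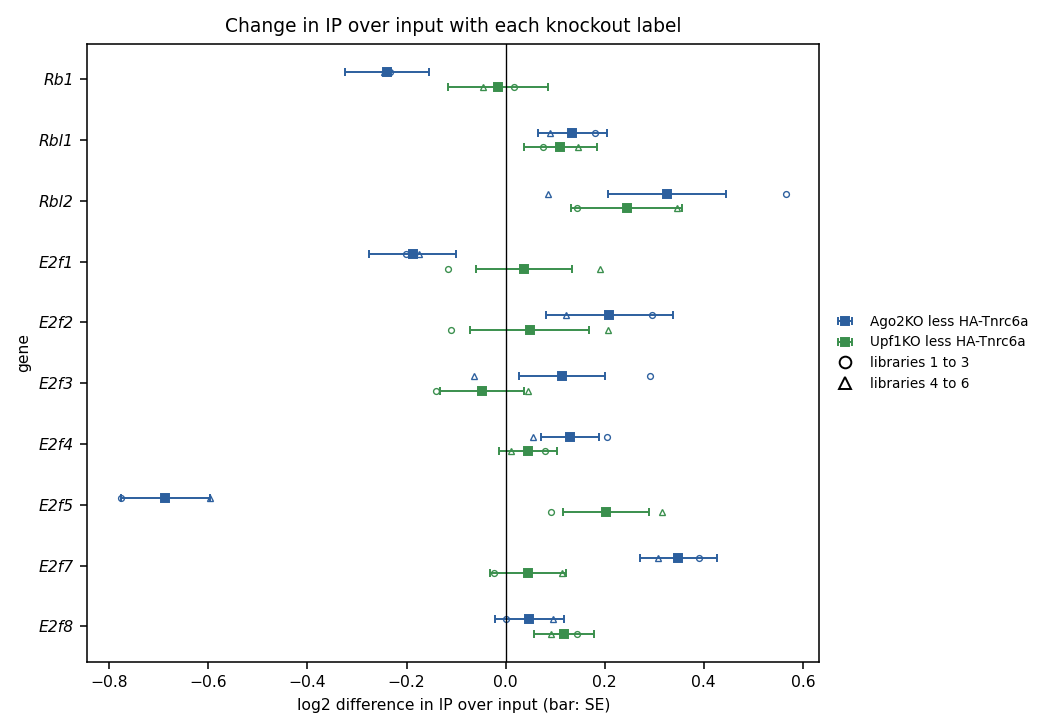
Difference in log2 IP over input of each gene between each knockout label and HA-Tnrc6a, with SE bars over 6 libraries a group and open symbols for the values within libraries 1 to 3 and 4 to 6. With Ago2-/- (blue) E2f5 lies at -0.69 and E2f7 at 0.35, and with the Upf1-/- label (green) all 10 values lie between -0.05 and 0.24.

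In untagged cells, which show the background of the beads, 3 members were called, or 5 with the library number as a replicate block (2 higher and 3 lower) and 6 with library totals. Of all 19299 genes tested 6892 were called, or 8017 with the block and 9556 with library totals. In the TMM-scaled fit without the block 2 of 10 were higher in IP than in input, against 18.0% of all genes, and 1 was lower, against 17.8%. E2f3 was higher by 0.53 ± 0.06 on the log2 scale (SE, n = 6; edgeR adjusted p = 1.55e-06) and E2f5 by 0.25 ± 0.06 (adjusted p = 0.00318), while E2f1 was lower by a difference of -0.34 ± 0.05 (adjusted p = 1.73e-05). With library totals E2f5 was at 0.08 and not called. This background was subtracted in the enrichments above.

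Input levels of the members differed with genotype, mostly by less than 2-fold. In Ago2-/- inputs 4 of 10 members were higher than in HA-Tnrc6a inputs (15.7% of all genes) and 4 were lower (15.2% of all genes). E2f2 fell most and Rb1 rose most.

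E2f2 stood at 8.01, 8.45 and 9.26 CPM in Ago2-/- inputs 1 to 3 and at 11.7, 11.7 and 12.1 CPM in inputs 4 to 6, below every HA-Tnrc6a input of the same set. The log2 difference was -0.83 ± 0.07 (SE, n = 6; edgeR adjusted p = 1.95e-13), which is 1.78-fold lower, with -0.61 and -1.05 in the sets. Untagged inputs held 15.6 to 38.1 CPM of E2f2 and were higher than HA-Tnrc6a inputs too, by 0.51 ± 0.07 (edgeR adjusted p = 3.05e-06).

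Rb1 stood at 22.7, 22.1 and 24.8 CPM in Ago2-/- inputs 1 to 3 and at 26.1, 26.7 and 25.0 CPM in inputs 4 to 6, above all HA-Tnrc6a inputs (15.6 to 17.7 CPM). Its log2 difference was 0.55 ± 0.05 (SE, n = 6; edgeR adjusted p = 7.91e-12), with 0.39 and 0.72 in the sets.

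The remaining differences in Ago2-/- inputs were small. E2f5 rose by 0.26 ± 0.04 (edgeR adjusted p = 7.71e-06), E2f1 by 0.22 ± 0.03 (adjusted p = 5.64e-07) and E2f7 by 0.16 ± 0.04 (adjusted p = 0.00304) on the log2 scale. E2f3 was lower by a log2 difference of -0.22 ± 0.04 (adjusted p = 2.07e-06), with -0.11 and -0.34 in the sets (adjusted p of the set difference = 0.0436), and E2f4 by -0.09 ± 0.03 (adjusted p = 0.00378). Rbl2 was called at -0.18 ± 0.07 (adjusted p = 0.0445), but it was -0.37 in set 1 to 3 and 0.00 in set 4 to 6, and the call was lost in 9 of 12 fits that left out a library. Rbl1, at -0.07 ± 0.04, and E2f8, at 0.05 ± 0.03, did not pass.

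Markers of other cell types moved with this genotype. All 6 endoderm markers were lower in Ago2-/- inputs, where their summed level was 41.5 to 55.1 CPM against 92.9 to 124 CPM in HA-Tnrc6a inputs, and all 5 neural markers were higher, at 116 to 126 against 86.0 to 93.9 CPM. The 4 fibroblast markers tested were lower too, at a summed 27.3 to 37.7 against 35.9 to 48.1 CPM, while 5 of 8 stem cell markers were higher and 1 lower, and 0 of 4 mesoderm markers were called. The endoderm sum rests mostly on Lama1 (25.7 to 90.6 CPM over all inputs) and the neural sum mostly on Tubb3 (34.5 to 101 CPM). Others were scarce, such as Foxa2 (at most 0.961 CPM) and Pax6 (at most 1.55 CPM). None of these markers was at 0 in all libraries of a group, and the part of the markers in the input differences was not tested.

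In inputs labelled Upf1-/- 1 of 10 members was higher than in HA-Tnrc6a inputs (29.5% of all genes) and 6 were lower (29.0% of all genes). E2f3 was lower by a like amount in both sets: its inputs held 31.2, 35.6 and 34.0 CPM in set 1 to 3 and 43.9, 45.9 and 47.1 CPM in set 4 to 6, below every HA-Tnrc6a input of the same set. The log2 difference was -0.41 ± 0.04 (SE, n = 6; edgeR adjusted p = 3.22e-13), with -0.42 and -0.39 in the sets. Rbl1 (-0.17 ± 0.04, adjusted p = 0.0008) and E2f4 (-0.15 ± 0.03, adjusted p = 9.4e-07) were lower as well by edgeR's test.

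For 4 members this input difference depended on the set, by edgeR's test of the set difference. How many of all genes pass it was not counted. E2f8 was 0.15 in set 1 to 3 and -0.47 in set 4 to 6, with inputs of 65.6, 63.8 and 69.3 CPM and then 55.2, 53.8 and 56.0 CPM (adjusted p of the set difference = 2.75e-10), so that its average of -0.16 ± 0.03 describes neither set. E2f2, the member that was higher, was at 0.10 and 0.54 (adjusted p = 0.00748) around an average of 0.32 ± 0.06. Rbl2 was at -0.50 and -0.04 (adjusted p = 0.0247) around -0.27 ± 0.07. E2f7 was at -0.11 and -0.39 (adjusted p = 0.0309) around -0.25 ± 0.05. E2f5 (0.04), E2f1 (0.02) and Rb1 (-0.06) did not pass. In the same inputs 4 of 6 endoderm markers and 3 of 5 neural markers were lower and 1 endoderm marker was higher, with summed levels of 37.5 to 128 and 53.9 to 69.8 CPM. Mesoderm markers were higher for 2 of 5 (9.49 to 18.1 CPM summed, against 7.01 to 8.41 in HA-Tnrc6a), fibroblast markers higher for 2 and lower for 1 of 4, and stem cell markers higher for 3 and lower for 5 of 8. The part of these markers in the differences was not tested.

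The untagged inputs differed from HA-Tnrc6a inputs in 2 members, E2f2 and E2f4. Both were higher, against 7.67% of all genes higher and 7.74% lower, and E2f4 differed by 0.12 ± 0.03 on the log2 scale (edgeR adjusted p = 0.00663). In the same inputs 3 of 6 endoderm markers were lower (46.4 to 100.0 CPM summed), 2 of 5 neural and 1 of 4 fibroblast markers higher and 3 of 8 stem cell markers lower, and their part was not tested. All 3 comparisons of inputs share the HA-Tnrc6a libraries.

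**Figure D5:**
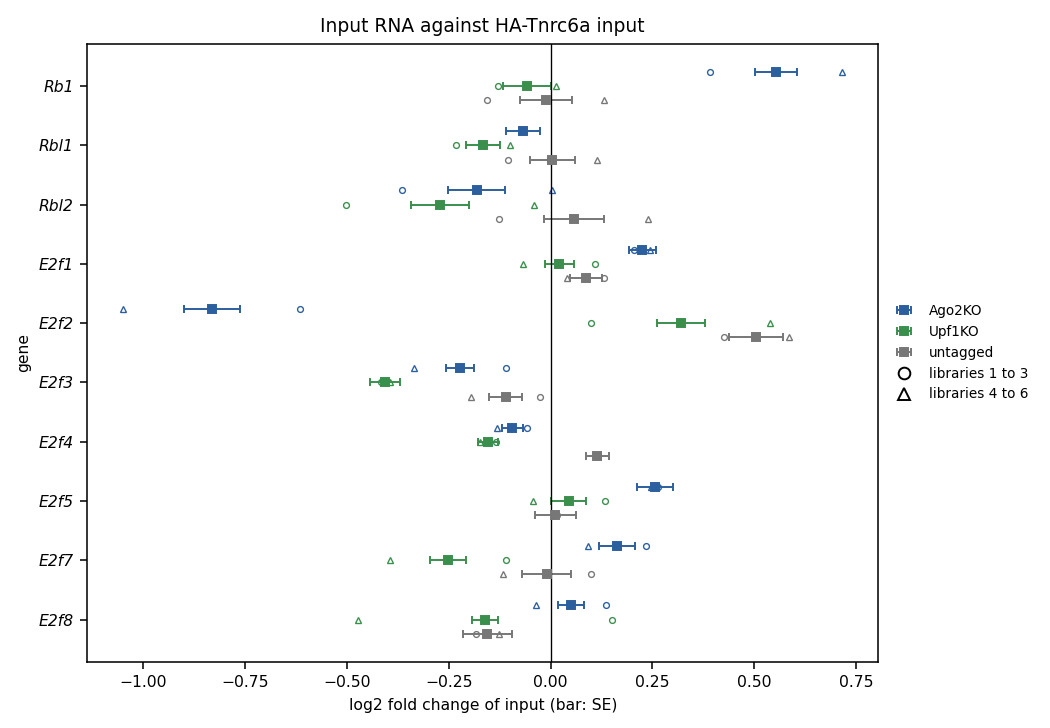
Log2 difference of each gene's input level from HA-Tnrc6a inputs in the other 3 genotypes, with SE bars over 6 libraries a group and open symbols for the values within libraries 1 to 3 and 4 to 6. E2f2 lies at -0.83 and Rb1 at 0.55 in Ago2-/- cells, and for E2f8 with the Upf1-/- label the sets lie on opposite sides of 0, at 0.15 and -0.47.

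In the inputs, differences between paralogues in log2 CPM changed, some widening and some narrowing. In HA-Tnrc6a and Ago2-/- inputs E2f1 less E2f2 had means of 1.57 and 2.61, a wider gap. Narrower gaps were those of Rb1 less Rbl1, at -0.92 and -0.31, and E2f4 less E2f5, at 2.53 and 2.18. With Ago2-/- the difference E2f1 less E2f2 changed by 1.05, Rb1 less Rbl2 by 0.73, Rb1 less Rbl1 by 0.62, E2f2 less E2f3 by -0.60, E2f1 less E2f3 by 0.45 and E2f4 less E2f5 by -0.35, each with an exact permutation p of 0.005. E2f7 less E2f8 changed by 0.11 (exact permutation p = 0.035, adjusted p = 0.0448), and Rbl1 less Rbl2, at 0.11, did not pass (exact permutation p = 0.13). With the Upf1-/- label 4 of 8 pairs passed, led by E2f2 less E2f3 at 0.73 and E2f1 less E2f3 at 0.43 (exact permutation p = 0.005 each). The first of these narrowed, from a mean of -1.54 in HA-Tnrc6a inputs to -0.81, and the second widened, from 0.03 to 0.46. Pairs of other genes were not counted for the inputs either.

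The genes that work with or under these families were enriched in mixed directions. Over all genes 29.8% were higher, 16.5% at least 2-fold, and 32.2% were lower. Of 10 listed partners, such as the dimerization partners and the DREAM complex subunits, 9 were tested for enrichment with HA-Tnrc6a, and 3 were higher, 2 lower and 4 not called (median log2 0.04). Lin52, a DREAM subunit, was higher by 3.81 ± 0.11 (edgeR adjusted p = 7.6e-25) and Rbbp4, a histone chaperone, was lower at -0.52 ± 0.06 (adjusted p = 5.51e-09). Of 27 E2F target genes 12 were higher, 4 of them at least 2-fold, and 13 were lower (median log2 0.04). Ccne2, a cyclin that activates Cdk2, was at 4.73 ± 0.14 (adjusted p = 4.71e-21), and Pcna, the sliding clamp of replication, at -0.66 ± 0.07 (adjusted p = 1.22e-09). Of 13 upstream cyclins, kinases and kinase inhibitors 7 were higher and 3 lower (median log2 0.76), and Cdkn1a, which encodes the kinase inhibitor p21, was at 5.8 ± 0.11 (adjusted p = 9.77e-28). All these medians stand beside -0.10 for all genes.

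With Ago2-/- the recovery of partners was higher for 2 of 9 genes and lower for none, of target genes higher for 7 and lower for 4 of 27, and of upstream genes higher for 1 and lower for 5 of 13, against 9.09% of all genes higher and 12.3% lower. Lin52 was higher by 1.08 ± 0.12 (edgeR adjusted p = 2.18e-07), Ccne2 was at -0.57 ± 0.11 (adjusted p = 0.000219) and Cdk4, a kinase of pocket proteins, at -0.42 ± 0.06 (adjusted p = 4.35e-06). With the Upf1-/- label the counts were 0 of 9 partners, 5 of 27 target genes (4 higher, 1 lower) and 1 of 13 upstream genes, which was higher, against 4.49% of all genes.

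In Ago2-/- inputs 13 of 27 target genes were higher and 4 lower (15.7% and 15.2% of all genes), the named ones by small amounts such as 0.18 ± 0.02 for Mcm3, a helicase subunit (edgeR adjusted p = 4.77e-08). Of 13 upstream genes 5 were higher, 2 lower and 6 not called in these inputs. The D-type cyclins Ccnd2 and Ccnd1 were higher by 1.32 ± 0.08 and 0.81 ± 0.03 (edgeR adjusted p = 1.81e-18 and 2.63e-26). With the Upf1-/- label 9 target genes were higher and 15 lower (29.5% and 29.0% of all genes), among them Pcna at -0.29 ± 0.03 (edgeR adjusted p = 3.84e-14). Of the 13 upstream genes 4 were higher, 4 lower and 5 not called, and Ccnd2 was lower at -1.70 ± 0.13 (edgeR adjusted p = 1.16e-15).

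The gene whose levels followed Rbl2 most closely over the 16 means of group and set was Slc25a32, with a Pearson correlation of 0.998 of log2 CPM among 10840 genes. Rbl1 stood at rank 31 with 0.995. For E2f7 the closest were Rcan3, Dnajb9 and Borcs5, each at 0.997. The 16 means share their libraries and the contrast of IP and input between all genes, so the values describe a pattern only.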

How the data were processed

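RNA immunoprecipitates and inputs were sequenced from stranded total RNA libraries. The deposited table gives raw counts per gene. Per the submitters' processing notes the tools were bcl2fastq 2.20 and STAR 2.7.3a with GRCm38/mm10; the counting tool and its strand setting are not given in the sources used here. Another 48 per-library columns (RPKM) were not used. Columns were tied to groups by name, not to single samples. The table names 16427 genes, RefSeq supplied 3725 further symbols and 19 had none; every gene reaches at least 11 counts in some library, so the table appears filtered.

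Each comparison was fitted with edgeR 4.0.16 (R 4.3.3; TMM, filterByExpr with a minimum count of 10, robust quasi-likelihood F-test, two-sided, set by group), with Benjamini-Hochberg adjustment over all genes and a threshold of 0.05. Enrichment and recovery are interaction terms of fraction and genotype, averaged over the 2 sets. CPM use TMM factors over all 48 libraries, and log2 CPM in the pair tests a prior count of 2. The code was tested on simulated data. Alternatives were RLE, library totals, no filter, DESeq2 1.42.0, all libraries in 1 fit, each set alone, a replicate block, each library left out, a 2-fold threshold and IPs without inputs. For other genes, up to 2 called genes a list and direction could be named. The members, lists and pairs were chosen with earlier results of these data known. No 2 libraries were identical or agreed within sampling noise (lowest chi-square per degree of freedom 1.96).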

Additional observations from a re-analysis of the deposited data

Results flagged for a closer look

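In 5 of 80 groups of 6 libraries, 1 library of a member stood apart from the other 5 by Dixon's test at the 95% level, which is 6.25%, and chance gives about 1 in 20. Rbl1 had 19.3 CPM in untagged IP 1, below the other 5. Rbl2 had 9.01 CPM in untagged input 1, again the lowest. Rbl2 had 457 CPM in IP 4 labelled Upf1-/-, the highest of its group. E2f4 had 228 CPM in HA-Tnrc6a IP 4, and E2f7 had 223 CPM in IP 3 labelled Upf1-/-, both the highest of their groups.

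In 5 cases the input difference from HA-Tnrc6a changed between the library sets by edgeR's test, given here as log2 in libraries 4 to 6 less libraries 1 to 3. E2f3 in Ago2-/- cells changed by -0.23 (adjusted p = 0.0436). With the Upf1-/- label Rbl2 changed by 0.46 (adjusted p = 0.0247), E2f2 by 0.44 (adjusted p = 0.00748), E2f7 by -0.28 (adjusted p = 0.0309) and E2f8 by -0.63 (adjusted p = 2.75e-10). The enrichment in Ago2-/- over untagged cells also changed between the sets, by -0.79 for Rbl2 (adjusted p = 0.0146), -0.46 for E2f1 (adjusted p = 0.0245), -0.58 for E2f2 (adjusted p = 0.0385) and -0.81 for E2f3 (adjusted p = 0.00149). The sets differ in depth as well as in number, and its part in these differences was not tested. The share of all genes with such a set difference was not counted.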

How the results depend on the processing

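The 10 members were called higher in all 3 enrichments whichever single library was left out. Without 1 library the members called ran from 2 to 5 for recovery with Ago2-/-, 7 to 8 for Ago2-/- inputs, 2 to 4 for untagged inputs and 3 to 4 for beads alone, and set differences from 0 to 1 (enrichment), 0 to 2 (Ago2-/- inputs) and 2 to 5 (Upf1-/- inputs). The Rb1 recovery call was lost (adjusted p up to 0.101) without any HA-Tnrc6a input, Ago2-/- inputs 1, 3, 4 or 5, HA-Tnrc6a IPs 2 or 4, or Ago2-/- IPs 2, 4, 5 or 6. Rbl2 recovery passed without HA-Tnrc6a IPs 1 or 4, Ago2-/- IPs 2 or 5, or Ago2-/- input 5, and the Rbl2 call in Ago2-/- inputs was kept without HA-Tnrc6a input 4 or Ago2-/- inputs 2 or 5 alone among 12. At a 2-fold threshold 0 members were called in recovery with Ago2-/-, in beads alone and in all 3 input comparisons. Library totals gave 6 members for beads alone and 2 set differences in enrichment, and moved the called genes that were higher from 5955 of 12395 to 39.1% (enrichment), and their share from 50.3% to 20.9% (beads) and 65.1% to 22.4% (recovery, Upf1-/-; 52.8% with RLE). All 48 libraries in 1 fit gave 5 members for beads, 5 for Ago2-/- inputs and 1 for untagged inputs, beside 7774, 3902 and 1937 of 20170 genes. That fit gave 0 and 1 set differences in Ago2-/- and Upf1-/- inputs, and RLE gave 2 in Ago2-/- inputs. Untagged inputs gave 0 members in set 1 to 3, beside 652 of 17823 genes, and 5 in set 4 to 6, beside 4193 of 19304. IPs without inputs gave 5 members in recovery with Upf1-/-, where Rbl2 turned to -0.0652; with Ago2-/- Rb1 turned to 0.35, E2f1 to 0.0748, E2f2 to -0.58 and E2f3 to -0.0713, and in enrichment with Upf1-/- E2f4 to -0.0672. In single sets recovery with Ago2-/- was -0.0496 for E2f3 (4 to 6) and -0.0208 for E2f8 (1 to 3); Ago2-/- inputs in 4 to 6 were 0.00708 for Rbl2 and -0.0325 for E2f8; Upf1-/- inputs were 0.0127 for Rb1, -0.0682 for E2f1 and -0.0444 for E2f5 in 4 to 6 and 0.15 for E2f8 in 1 to 3. E2f1 there ran from -0.0046 to 0.0413 without 1 library, below 0 without HA-Tnrc6a input 2 or Upf1-/- input 5. Of the pairs, 0 of 32 passed in a single set; Rbl1 less Rbl2 turned to -0.0733 (Ago2-/- inputs) and -0.0629 (Upf1-/-), and in Upf1-/- inputs E2f7 less E2f8 to 0.0838 and E2f1 less E2f2 to 0.00687. All genes called moved from 4267 to 1623 (set 1 to 3) and 7482 (IPs without inputs) in recovery with Ago2-/-; from 896 to 162, 384 (each set), 8805 (IPs without inputs) and 591 to 957 (without 1 library) with Upf1-/-; from 6892 to 1972 (beads, set 1 to 3); from 6065 to 3902 (all 48) and 3382 (set 1 to 3) in Ago2-/- inputs; and from 2990 to 1937 and 652 in untagged inputs. The cause was not tested, other than fewer libraries in the single sets.

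Column numbers were not taken to pair the libraries: deviations of same-numbered libraries correlated at 0.068 on average (168 pairs, -0.293 to 0.674), and input with IP at 0.104 (24 pairs, -0.0609 to 0.509), with 0.509, 0.263 and 0.317 in untagged libraries 1 to 3 but 0.0419, 0.0385 and 0.0636 in 4 to 6. With the number as a replicate block 5 members were called for beads alone, 3 set differences in Ago2-/- inputs, and Rbl2 recovery with Ago2-/- at 0.33 (adjusted p = 0.048).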
